A study of Mus musculus with 8 samples.

Results

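The expression of 8 genes whose proteins are islet autoantigens of type 1 diabetes was followed across all arrays of the series: *Gad1*, *Gad2*, *Ptprn*, *Ptprn2*, *Slc30a8*, *G6pc2*, *Chga* and *Ica1*. They were found by symbol among the probes that are not controls, older symbols included, and make up 8 of the 21597 symbols on the array. They are measured by 13 of the 34850 probes (entities) that carry a symbol. *Gad1* and *Ica1* have 3 entities each, *Gad2* has 2, one of which is listed under the older name 6330404F12Rik, and the other 5 genes have 1 each. Of the 13 entities, 12 reached a red signal of 25 on 4 or more arrays and were tested. The remaining one, a *Gad1* entity, had stand-in values in both dyes on every array.

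The samples were whole pancreata of female mice 12 weeks old. Each of 8 NOD mice, a strain that develops autoimmune diabetes spontaneously, was labeled red (Cy5) on its own array. Green (Cy3) on every array was one pool of 8 NOD.B10 mice (NOD.B10Sn-H2b/J), a congenic strain on the NOD background with another H2 haplotype that is not prone to diabetes. No treatment is named for either strain. The dyes were never exchanged, so that dye bias of a probe and the difference between strains cannot be told apart, and the pool gives no spread between NOD.B10 mice. Replicates 1 to 4 lay on slide 1 and replicates 5 to 8 on slide 2. The grid was not rated good by the software on replicates 5, 6 and 7. A log2 ratio below 0 means that the NOD mouse was lower than the pool.

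Type 1 diabetes autoantigens are mostly proteins of the secretory machinery of islet endocrine cells, and antibodies to them mark the autoimmune process before hyperglycemia. *Ptprn* (IA-2) and *Ptprn2* (IA-2beta, phogrin) encode phosphatase-like proteins of the dense-core granule membrane, *Slc30a8* encodes ZnT8, which loads insulin granules with zinc, and *Chga* encodes chromogranin A, a soluble granule protein whose peptides are recognized by diabetogenic T-cells of NOD mice. *G6pc2* encodes IGRP, a beta cell glucose-6-phosphatase subunit and target of CD8 T-cells. *Gad1* and *Gad2* encode the GABA-synthesizing enzymes GAD67 and GAD65, and *Ica1* encodes ICA69, a protein of Golgi and immature granule membranes that is expressed well beyond islets. Islets are a small part of the pancreas, and in whole tissue fewer islet cells and less RNA per islet cell cannot be told apart.

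Promoter sequences are shown for 3 of these genes because *Chga* and *G6pc2* varied together between mice and *Ptprn* was the gene called lower. They are RefSeq sequences of GRCm38.p6, the 250 bases before the most upstream start listed, 5′ to 3′ on the strand of the gene. They lie at chr1:75264209-75264458 (minus strand) for *Ptprn*, chr12:102554691-102554940 (plus strand) for *Chga* and chr2:69210823-69211072 (plus strand) for *G6pc2*. Capitals mark TGACG, the core of the cyclic AMP response element, on either strand.
Ptprn: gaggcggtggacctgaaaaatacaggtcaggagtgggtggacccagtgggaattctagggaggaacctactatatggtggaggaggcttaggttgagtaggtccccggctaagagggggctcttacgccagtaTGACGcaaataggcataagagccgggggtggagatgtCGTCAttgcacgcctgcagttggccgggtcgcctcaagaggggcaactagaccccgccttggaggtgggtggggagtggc
Chga: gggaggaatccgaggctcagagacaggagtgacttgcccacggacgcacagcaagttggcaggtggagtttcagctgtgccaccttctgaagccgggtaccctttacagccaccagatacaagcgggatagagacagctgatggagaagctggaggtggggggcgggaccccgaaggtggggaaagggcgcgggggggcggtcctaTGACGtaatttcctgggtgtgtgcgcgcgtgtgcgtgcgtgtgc
G6pc2: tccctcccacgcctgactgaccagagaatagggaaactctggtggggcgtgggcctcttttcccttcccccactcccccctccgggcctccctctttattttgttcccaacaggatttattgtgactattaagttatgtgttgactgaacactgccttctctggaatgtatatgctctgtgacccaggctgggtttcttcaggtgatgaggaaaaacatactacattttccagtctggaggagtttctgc

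The motifs were chosen after the sequences had been seen, and a match is a description of letters. TGACG was found on the plus strand 117 to 113 bases and on the minus strand 80 to 76 bases before the *Ptprn* start. In *Chga* it was found once, 44 to 40 bases before the start, and in *G6pc2* it was not found. Either strand holds it in 17.8% of the 32851 promoter windows in the table. The TATAAA motif, held by 12.4% of windows, was in none of these 3. The E-box CAGNTG, held by 44.8% of windows, was found in all 3. The table matched 7 of the 8 genes, all except *Slc30a8*.

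Over all genes, 484 of 28105 tested entities changed by 2-fold or more with an adjusted p below 0.01 (limma, Benjamini-Hochberg) and were called, 397 lower in NOD (1.41%) and 87 higher (0.31%). The mean log2 ratio of all tested entities had a median of -0.090, and 60.0% of the means were below 0. When background-subtracted signals were centered on the median ratio of bright spots, this median was 0.074 and 5780 entities were called higher against 1307 lower, and with normexp background correction and loess 48 were called higher and 19 lower. Between 21.6% and 35.3% of the spots of an array had red signal well above background, and in 42.9% to 54.0% the software put a stand-in value, set from the noise of the background, in place of red. Of the 104 log ratios of the autoantigen entities (13 on 8 arrays), 39 were deposited as 0, in 22 of which both dyes were stand-ins and in 17 a red stand-in exceeded a measured green signal.

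Among the 12 tested entities, 1 was called lower, *Ptprn*, beside 1.41% of all tested entities, and none was called higher, beside 0.31%. At an unadjusted p under 0.05 there were 3 of 12, namely *Ptprn*, *Slc30a8* and *Chga*, compared to 33.8% of all tested entities. The same 3 genes were lower than the pool in all 8 mice, a pattern held by 9.4% of all tested entities. The brightest entity of every one of the 8 genes had a mean below 0, beside 60.0% of all tested entities. Of these means, 5 were within the spread between mice. A red stand-in above a measured green signal was deposited as 0, and one below it gave a negative ratio. The means of *Gad1* and *Gad2*, with red stand-in values on 8 arrays, could thus not be above 0. The same limit held for 7 ratios of *Ptprn2*, 4 of *Slc30a8* and 2 of *Ptprn*. The plot of log2 ratios by mouse shows the 8 genes together.

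**Figure D1:**
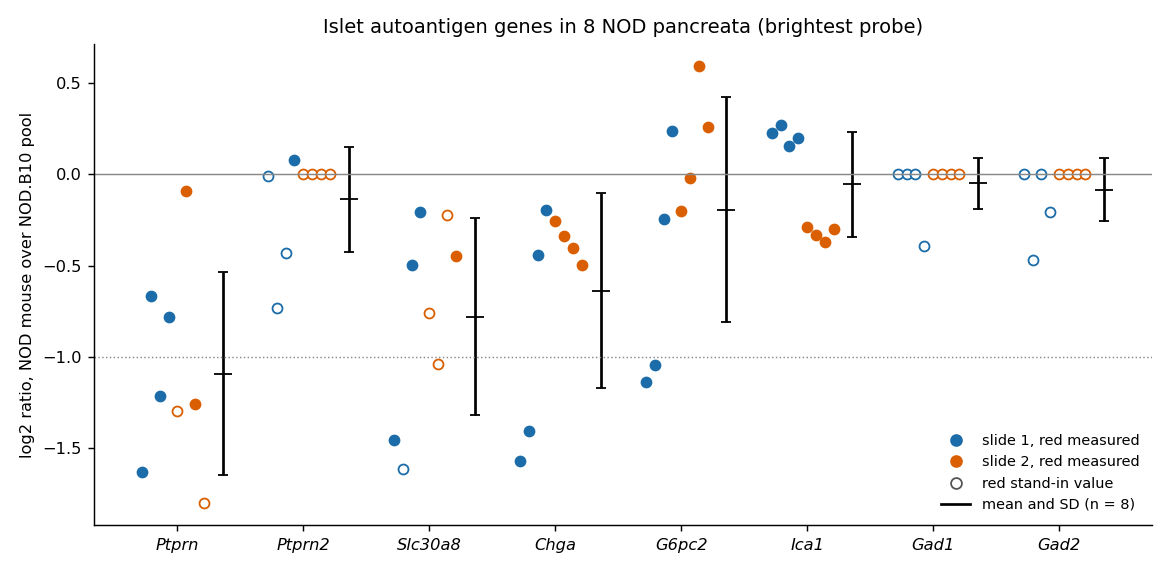
Log2 ratio of each NOD mouse over the NOD.B10 pool (y axis) for the brightest entity of each gene (x axis), colored by slide, with open points for red stand-in values, the mean with SD beside them and a dotted line at a 2-fold decrease. All 8 points of *Ptprn*, *Slc30a8* and *Chga* lie below 0, *Ica1* splits by slide, and *Gad1* and *Gad2* rest on stand-in values.

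Of the granule membrane proteins, *Ptprn* (IA-2) fell by 1.09 ± 0.555 on the log2 scale (SD, n = 8) in NOD vs. NOD.B10 pancreata. The log2 ratio was -1.80 at the lowest, -1.24 at the median and -0.091 at the highest, and the median mouse had 42.4% of the signal of the pool. Replicate 6 stood at 93.9% of the pool and the other 7 mice between 28.7% and 63.0%. The 95% interval of the mean ran from -1.53 to -0.66 (limma, adjusted p = 0.00766), and the exact two-sided sign-flip permutation test gave p = 0.00781, the smallest that 8 arrays allow. In the deposited ratios the decrease was as large on slide 1 (mean -1.07) as on slide 2 (mean -1.11). With median-centered signals the means were -0.92 on slide 1 and -0.45 on slide 2 (exact permutation p = 0.171).

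The *Ptprn* probe lies at chr1:75134959-75135018 (mm8, minus strand), and its signal was weak. The processed red signal was 35.2 to 186 with a median of 56.1, and the green signal of the pool was 104 to 198 with a median of 138. Green was well above background on all 8 arrays, but red was so only on replicate 6 and was a stand-in value on replicates 5 and 8. The ratios of replicates 5 and 8 could therefore not be above 0, for which the sign-flip test does not allow. With the stand-in values left out the mean log2 ratio was -0.94 (limma, adjusted p = 0.0163), just under 2-fold. Leaving out any mouse other than replicate 6 raised the adjusted p above 0.01, to between 0.0158 and 0.0230 (limma), while without replicate 6 the mean was -1.24 (limma, adjusted p = 0.00489). Without the 3 arrays whose grid was not rated good it was -1.22 (limma, adjusted p = 0.0352). Before normalization the background-subtracted red signal was 1.07 to 12.3 and the green signal 27.5 to 56.0. With normexp, which adds 50 to both dyes, the mean log2 ratio was -0.042 and 5 of 8 mice were below 0.

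*Ptprn2* (phogrin), at chr12:117689771-117690587 on the plus strand (mm8), could not be compared on most arrays. Green was well above background on 8 of 8 arrays with processed signals of 49.1 to 66.8. Red was a stand-in value on 7, and the log ratio was deposited as 0 on all 4 arrays of slide 2. Replicate 4 alone had a measured red signal, at 54.1 against 51.4 in green. The log2 ratios on slide 1 lay between -0.73 and 0.075, and the mean over all mice was -0.14 ± 0.287 (SD, n = 8; limma, adjusted p = 0.371). The red background on slide 2, where stand-in values of 68.6 to 120 exceeded every green value, did not allow a decrease to be seen.

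For *Slc30a8* (ZnT8), the probe at chr15:52163682-52165207 on the plus strand (mm8) gave log2 ratios with a mean of -0.78 ± 0.540 (SD, n = 8). The ratio was -1.61 at the lowest, -0.63 at the median and -0.21 at the highest. All 8 mice were below the pool, but with red this weak the order among them was not measured. The 95% interval was -1.20 to -0.36, the exact sign-flip permutation p was 0.00781, and the limma adjusted p of 0.0236 did not pass 0.01. Green was steady at 71.4 to 85.5 and well above background on every array. Red was 25.2 to 71.0, well above background on none, and a stand-in value on replicates 2, 5, 6 and 7. A ratio with a red stand-in value could not be above 0, so that the sign was not free on these arrays. The sign-flip test does not allow for this. Over the 4 arrays without a stand-in value the mean was -0.65 (limma, adjusted p = 0.105), and with normexp it was -0.047 with 6 of 8 mice below 0.

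*Chga* (chromogranin A), at chr12:102965923-102965982 on the plus strand (mm8), was well above background on all 8 arrays in red and in green, so that its ratios hold no stand-in value. The log2 ratio was -1.57 at the lowest, -0.42 at the median and -0.20 at the highest, with a mean of -0.64 ± 0.533 (SD, n = 8). Replicates 1 and 2 had 33.7% and 37.8% of the signal of the pool and the other 6 mice 70.8% to 87.4%. The red signal of replicates 1 and 2 was 2763 and 3531, against 5975 to 8477 in the others, while green stayed between 8100 and 10457. The 95% interval of the mean was -1.06 to -0.22, or 48.1% to 85.8% of the pool, with an exact sign-flip permutation p of 0.00781 and a limma adjusted p of 0.0439. The latter did not pass 0.01, and without single mice it was 0.0598 to 0.0847 (limma). With median-centered signals 5 of 8 mice were below 0, and the mean of -0.39 was made of -0.89 on slide 1 and 0.10 on slide 2. With normexp and loess the mean was -0.32, with means of -0.78 on slide 1 and 0.15 on slide 2.

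**Figure D2:**
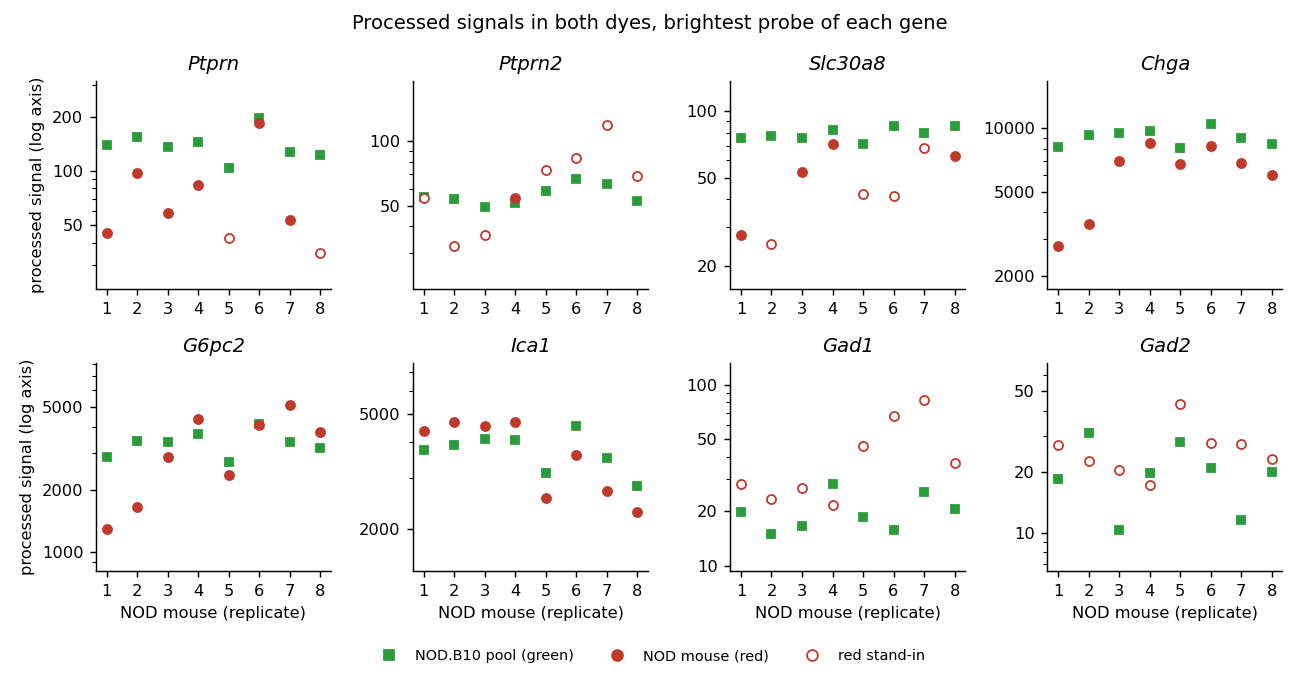
Processed signal (y axis, log scale) of the NOD mouse (red circles, open where a stand-in value) and of the NOD.B10 pool (green squares) on each of the 8 arrays (x axis), brightest entity of each gene. *Chga*, *G6pc2* and *Ica1* have signals of at least 1299 in both dyes, whereas *Slc30a8* stays below 100 and *Gad1* and *Gad2* have open red points throughout.

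*G6pc2* (IGRP), at chr2:69028577-69028636 on the plus strand (mm8), likewise stood well above background on all arrays in red and green, and showed no shared direction. The log2 ratio was -1.14 at the lowest, -0.11 at the median and 0.59 at the highest, and the mean was -0.19 ± 0.617 (SD, n = 8), with a limma adjusted p of 0.539. Replicates 1 and 2 had 45.4% and 48.5% of the pool, replicate 7 had 151%, and the other 5 mice had 84.4% to 120%. In all, 5 mice were below and 3 above the pool. The 95% interval, -0.68 to 0.29 or 62.6% to 122% of the pool, leaves room for a moderate change in either direction. The mean turned to 0.087 with median-centered signals and to 0.049 with normexp and loess. Without single mice it was -0.31 to -0.060, and without the 3 arrays whose grid was not rated good it was -0.39.

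*Ica1* (ICA69) was measured by 3 entities, and the brightest, at chr6:8580546-8580605 on the minus strand (mm8), was well above background on all arrays. Its mean log2 ratio was -0.056 ± 0.288 (SD, n = 8), with a 95% interval of -0.28 to 0.17 (limma, adjusted p = 0.727). The 4 mice on slide 1 were at 111% to 120% of the pool and the 4 on slide 2 at 77.2% to 81.9%, so that the slides did not overlap, which also held for 12.9% of all tested entities. The red signal was 4368 to 4691 on slide 1 and 2285 to 3604 on slide 2, while the ranges of the green pool overlapped, at 3743 to 4072 and 2812 to 4536. The exact permutation test of 4 against 4 arrays gave p = 0.0286, the smallest it allows, which was 0.229 after adjustment over the 8 genes.

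The second *Ica1* entity, with its position at chr6:8603659-8606387 on the minus strand (mm8), gave a mean of -0.39 ± 0.892 (SD, n = 8) on the log2 scale, in which replicate 8, a stand-in value at -2.52, stood apart from the other 7 at -0.43 to 0.19. The last, at chr6:8692352-8699727 (mm8), had a mean of -0.27 ± 0.668 (SD, n = 8) and ranged from -1.29 to 0.45. The mean of slide 2 was below that of slide 1 for all 3 entities. For the second and last entity the slides overlapped, and the exact permutation p was 0.0857 and 0.171.

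**Figure D3:**
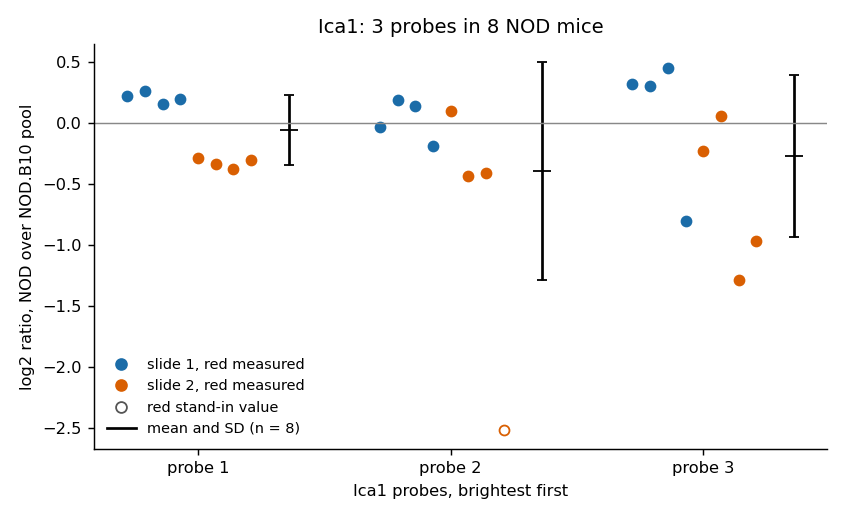
Log2 ratios (y axis) of the 3 *Ica1* entities, brightest first (x axis), in 8 NOD mice, colored by slide, with mean and SD. Slide 1 lies above and slide 2 below 0 without overlap for the brightest entity, and replicate 8 is at -2.52 for the second.

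Slide and the mice placed on it cannot be told apart. For the other bright genes the slide means of the deposited log2 ratio were -0.55 and 0.16 for *G6pc2* (exact permutation p = 0.114) and -0.90 and -0.37 for *Chga* (exact permutation p = 0.314). With median-centered signals *G6pc2* was at -0.60 and 0.78 and *Ica1* at 0.075 and -1.03 on slides 1 and 2. In both genes the slides did not overlap (exact permutation p = 0.0286, adjusted p = 0.114 over the 8 genes), as in 17.8% of all tested entities under that processing. With normexp and loess, *G6pc2*, *Chga* and *Ica1* each reached p = 0.0286 in the exact permutation test (adjusted p = 0.0762 over the 8 genes), with *G6pc2* and *Chga* higher and *Ica1* lower on slide 2, where 12.3% of all tested entities had slides that did not overlap.

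The GABA-synthesizing enzymes could not be compared between the strains. On none of the 8 arrays did an entity of *Gad1* or *Gad2* stand well above background, in red or in green. The brightest *Gad1* entity, at chr2:70402481-70402540 on the plus strand (mm8), had red stand-in values on 8 arrays and a log ratio deposited as 0 on 7 of them. Its background-subtracted signal before normalization was -2.25 to 1.60 in red and 2.96 to 5.98 in green, where no value was a stand-in. The brightest *Gad2* entity, at chr2:22545222-22545281 on the plus strand (mm8), had red stand-in values on 8 arrays and a log ratio deposited as 0 on 6. Their mean log2 ratios of -0.049 ± 0.139 and -0.084 ± 0.171 (SD, n = 8) are therefore no measure of these genes. Their second entities, at chr2:70377578-70377637 and chr2:22541987-22542045 on the plus strand (mm8), had stand-in values in both dyes on 7 arrays each, and the single log2 ratio other than 0 was 1.18 for *Gad1* (replicate 4) and 1.39 for *Gad2* (replicate 2). The last *Gad1* entity, at chr2:70402383-70402442 on the plus strand (mm8), was at 0 on all 8 arrays. With median-centered signals, where red is raised to a minimum, the means of the brightest *Gad1* and *Gad2* entities turned to 1.505 and 1.512. Those of the second entities went to 3.05 and 3.03.

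**Figure D4:**
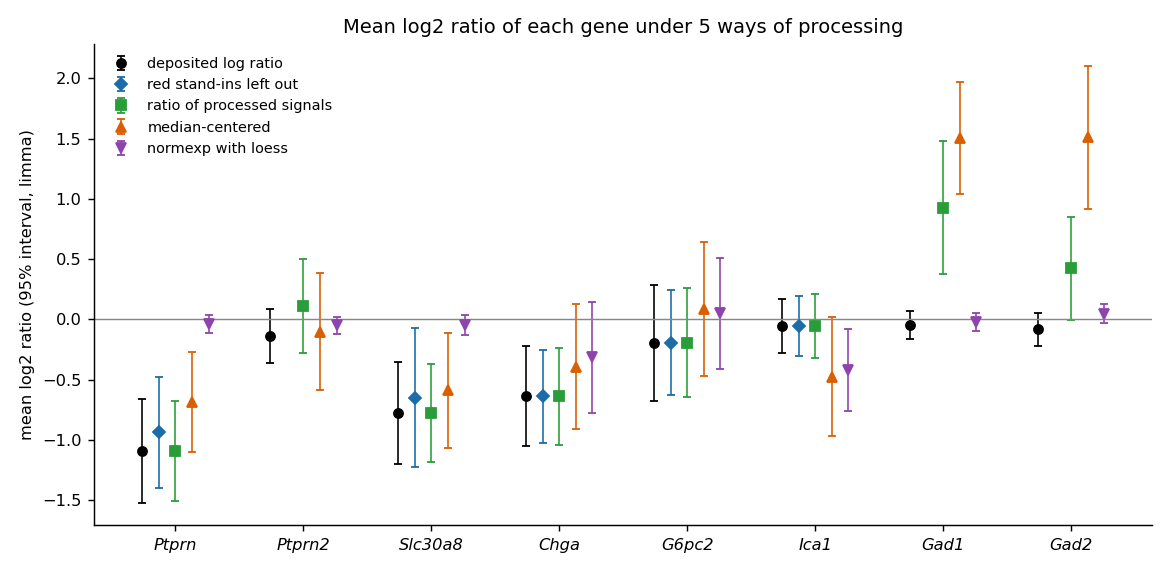
Mean log2 ratio with its 95% interval from limma (y axis) for the brightest entity of each gene (x axis) under 5 ways of processing, with no point for *Ptprn2*, *Gad1* and *Gad2* where too few red values remained. The means of *Chga*, *Ptprn*, *Slc30a8* and *Ica1* stay below 0 throughout, but the *Chga* interval reaches above 0 with median-centered signals and with normexp. *Ptprn* moves from -1.09 to -0.042, and *Gad1* and *Gad2* move from near 0 to 1.505 and 1.512.

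The granins and prohormone-processing enzymes, which share the granule with IA-2, phogrin, ZnT8 and chromogranin A, all had means below 0. Of 10 genes listed 9 were on the array and tested, and 9 of 9 means were below 0 with a median of -0.40, compared to 60.0% of means and a median of -0.090 over all tested entities. None passed an adjusted p of 0.01 (limma), and 4 were lower at an unadjusted p under 0.05. *Pcsk1n*, which encodes an inhibitor of prohormone convertase, had a mean of -0.59 (limma, adjusted p = 0.0158) and *Pcsk2*, a convertase of proglucagon and proinsulin, a mean of -0.48. *Scg3*, a granin that binds chromogranin A, had a mean of -0.74 and *Chgb*, chromogranin B, a mean of -0.17. By mouse, the median of the 9 genes was -1.02 and -0.96 in replicates 1 and 2 and between -0.58 and -0.13 in the others.

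The median of the islet hormone genes was lowest in the same mice. It was -2.06 and -1.07 in replicates 1 and 2 and -0.26 to -0.14 in the others. Of 8 genes, 7 had a mean below 0 and 1 was called lower, *Ghrl*, which encodes ghrelin (mean log2 ratio -1.27; limma, adjusted p = 0.00441; red well above background on 5 arrays). *Pyy* was at -0.87 and lower in 8 of 8 mice, *Gcg* (glucagon) at -0.70 and *Sst* (somatostatin) at -0.084. *Ins1* and *Ins2*, the insulin genes and themselves autoantigen genes, had means of -0.61 ± 1.04 and -0.38 ± 1.01 (SD, n = 8). *Ins2* was at -2.07 and -1.71 in replicates 1 and 2 and between -0.60 and 0.66 in the other 6 mice. *Iapp*, islet amyloid polypeptide, was at 0.10. The summed processed signal of the 8 hormone genes was 51257 to 306552 in red and 186331 to 237325 in green. The part of the hormone-expressing cells in the results on the autoantigen genes was not tested.

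**Figure D5:**
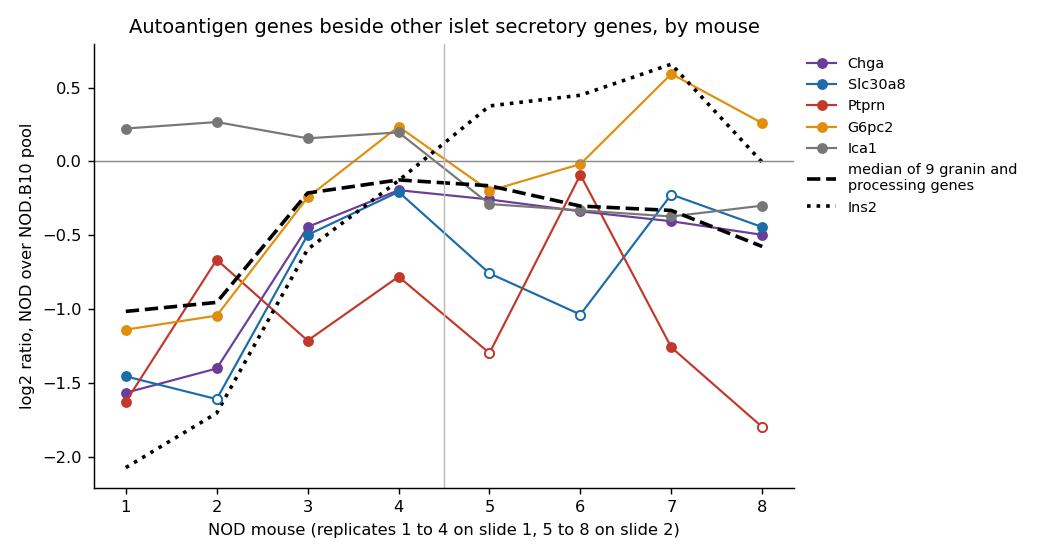
Log2 ratio over the NOD.B10 pool (y axis) in each NOD mouse (x axis) for 5 autoantigen genes, the median of the granin and processing genes (dashed) and *Ins2* (dotted); lines join the values of a gene and mark no order. Open points are red stand-in values. Replicates 1 and 2 are the lowest for *Chga*, *G6pc2*, the granin median and *Ins2*, *Ica1* does not follow, and the order of mice for *Slc30a8* and *Ptprn* was not measured, since red was well above background on 0 and 1 arrays.

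The genes whose ratios were most like those of *Chga* across the 8 arrays, after each was centered on its slide means, were *Pcsk2* (Pearson's r = 0.986), *Ins2* (r = 0.963) and *Kif16b* (r = 0.955), among 7374 entities with red well above background on all arrays. These values share array, slide and pool, and describe these 8 mice only. For *G6pc2* they were *Pck2* (r = 0.951), *Dbnl* (r = 0.947) and *Unc93b1* (r = 0.937). For the brightest *Ica1* entity they were *Rpl34* (r = 0.978), *Ddx19b* (r = 0.975) and *Ndufb2* (r = 0.961). Without centering on the slides these 3 values were 0.780, 0.308 and -0.387. *Chga* and *G6pc2* were alike (r = 0.818, centered on slide means). For *Ica1*, r was -0.553 with *Chga* and -0.693 with *G6pc2*. Both of these values rest on little spread and were not tested. Within slides the log2 ratio of the brightest *Ica1* entity ran only from 0.16 to 0.27 (slide 1) and from -0.37 to -0.29 (slide 2).

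Each autoantigen gene was then set against the median of the 9 granin and processing genes on the same array, which asks whether it moved apart from these granule genes. *Ptprn* was lower than that median by 0.63 ± 0.584 on the log2 scale (SD, n = 8) and below it in 6 of 8 mice. *Slc30a8* differed by -0.32 ± 0.342 and *Chga* by -0.18 ± 0.217, with 6 and 7 of 8 mice below. *G6pc2* differed by 0.27 ± 0.418 and was above it in 4 mice. None of the 8 genes passed an adjusted p of 0.05 in the exact sign-flip permutation test (adjusted p = 0.0625 to 0.125 over the 8 genes). Against the islet hormone median, *G6pc2* was higher in 8 of 8 mice, by 0.36 ± 0.348 (exact sign-flip permutation, adjusted p = 0.0417), while *Chga* (-0.087, adjusted p = 0.367) and *Ptprn* (-0.54, adjusted p = 0.138) did not pass in the same exact test. Against the median of 12 genes of beta cell glucose sensing, *Ptprn* (-0.87) and *Chga* (-0.42) were lower in 8 of 8 mice (exact sign-flip permutation, adjusted p = 0.0312), and *G6pc2* differed by 0.027 (adjusted p = 0.891). That reference is weak, since only 4 of its 12 genes were well above background in red on at least 4 arrays and its median in replicate 5 was 0.

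Other genes of the pathways around the antigens are read beside all tested entities, of which 6.94% passed an adjusted p of 0.01 and 33.8% an unadjusted p of 0.05 (limma). Of the remaining autoantigen genes, 10 of 11 were tested and none passed an adjusted p of 0.01 (limma), with 3 at an unadjusted p under 0.05. *Hspd1*, the mitochondrial chaperonin, had a mean log2 ratio of 0.28, *Tspan7*, a tetraspanin, -0.058, and *Npy* -0.73 with red stand-in values on 8 arrays. Of 12 glucose-sensing genes none passed (3 lower at an unadjusted p under 0.05, limma), with *Abcc8*, the sulfonylurea receptor, at -0.44 and *Prlr*, the prolactin receptor, at 0.091. Of 13 tested genes of vesicle docking and exocytosis none passed and 6 were lower at an unadjusted p under 0.05 (limma), with a median of -0.17. Over the 5 of them well above background in red on at least 4 arrays the median was -0.033, with *Rab3a* at 0.17 and *Vamp2* at 0.037 as the highest. *Sytl4* (granuphilin), which docks insulin granules, was at -0.92 and lower in 8 of 8 mice (limma, adjusted p = 0.0582), and *Syt13* was at -0.65. Of 12 tested islet transcription factors *Isl1* passed, at -0.67 (limma, adjusted p = 0.00880), although its red was a stand-in on each of the 8 arrays, and *Nkx6-1* was at -0.75.

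Around the GAD enzymes, none of the 9 tested genes of GABA transport, breakdown and reception passed, and 5 had an unadjusted p under 0.05 (limma). *Abat*, the transaminase that breaks down GABA, had a mean log2 ratio of -0.51, and *Gabbr1*, a subunit of the GABA-B receptor, was at 0.39 and higher in 8 of 8 mice (limma, adjusted p = 0.0252). The *Gabbr1* probe lies at chr17:36682094-36682153 (mm8), on the chromosome of H2, in whose haplotype the strains differ. The part of that haplotype in this ratio was not tested. Of 14 tested paralogs of the antigens none passed an adjusted p of 0.01 and 2 had an unadjusted p under 0.05 (limma), and their median was -0.078. Among the zinc transporters related to *Slc30a8*, *Slc30a7* was at -0.61 and *Slc30a2* at 0.34.

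Markers of other cells were read on the same arrays. The 13 acinar genes were well above background in red in at least 4 arrays each, with a median log2 ratio of 0.049. *Rbpjl*, an acinar transcription factor, fell by 0.41 (limma, adjusted p = 0.00169). Of 11 tested T-cell genes 7 had a mean above 0 with a median of 0.59, and *Cd3e*, a chain of the T-cell receptor complex, rose by 0.61 (limma, adjusted p = 0.00762). *Lck*, a kinase of T-cells, was at 2.30 ± 1.35 (SD, n = 8; limma, adjusted p = 0.0128), with green well above background on 2 arrays only. The summed signal of the T-cell list was 5458 to 18850 in red and 4455 to 10735 in green. Of the B-cell and myeloid genes 6 of 10 and 8 of 10 had a mean above 0, and none passed (3 and 1 at an unadjusted p under 0.05, limma). *Cd79b*, a chain of the B-cell receptor, was at 1.18 ± 1.39 (SD, n = 8). *Cd79a*, which defines B-cells, was not well above background in red on any array. The 8 duct genes had a median of -0.093, and the decrease of 0.66 computed for *Cftr* rests on red stand-in values on 8 arrays. Neuronal genes bear on these antigens because neurons also express *Gad1*, *Ptprn* and *Chga*. Of 10 tested genes of neurons and Schwann cells, 5 had a mean above 0 and 5 below, with a median of 0.016. At an unadjusted p under 0.05, 3 were higher and 2 lower (limma). *Elavl4*, which encodes a neuronal RNA-binding protein, was called lower, at -1.22, with a stand-in in red on each array. The part of immune and neuronal cells in the ratios of the autoantigen genes was not tested.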

How the data were processed

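Pancreas RNA was measured on 8 two-color Agilent arrays. The files deposited by the authors come from Feature Extraction (10.7.3.1) and hold, per spot, a log10 ratio (red divided by green), a background-subtracted and a processed intensity for each dye, and other flags for signals well above background and for stand-in values. Log10 ratios were converted to log2 and averaged over the spots of a probe. Entities with a symbol whose red processed signal reached 25 on 4 or more arrays were tested against a log2 ratio of 0 with limma 3.58.1 (R 4.3.3), and p-values were adjusted by Benjamini-Hochberg over 28105 entities. The test was checked on simulated data. Single genes were tested by exact sign flips or exact permutation of slides. The brightest entity stands for a gene. Probe positions are those of the files (mm8) and promoters are from RefSeq (GRCm38.p6); no position was converted. Figures were drawn with matplotlib 3.10.9.

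The members, the 14 gene lists and the tests were chosen with earlier results of these data known. Named are all entities of the 8 genes; in each list genes past an adjusted p of 0.01 and some of the 2 highest and 2 lowest among genes well above background in red on at least 4 arrays; and the 3 genes most like each member. Some genes that meet this rule are not reported here. *Gcg*, *Tspan7*, *Npy* and *Cd79a* were named beyond this rule after their values were seen. Alternatives were the plain statistic, no signal filter, a filter on red well above background, median-centered signals, normexp (offset 50) with loess, the ratio of processed signals, red stand-ins left out, a slide term, the omission of each mouse in turn, thresholds of 0.05 for the adjusted p and 1.5 for the fold, other entities and the median over mice. Leaving out the 3 arrays whose grid was not rated good was added after the data were seen.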

Additional observations from a re-analysis of the deposited data

Results flagged for a closer look

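For 5 of the 12 entities with any spread, 1 mouse stood apart from the other 7: its gap to the nearest mouse, as a share of the whole range, was above Dixon's critical value at the 95% level, which chance passes in about 1 of 20 groups. For the brightest *Gad1* entity the share was 1, since replicate 4 was at -0.39 and the other log2 ratios were 0. For the second *Gad1* entity it was 1, with replicate 4 at 1.18, and for the second *Gad2* entity 1, with replicate 2 at 1.39. For the brightest *Gad2* entity it was 0.562, with replicate 2 at -0.47. These values rest on stand-in signals. For the second *Ica1* entity it was 0.771, with replicate 8, a red stand-in value, at -2.52.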

How the results depend on the processing

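The count of 484 called entities became 308 with the plain statistic, 133 with the filter on red well above background, 7087 with median-centered signals, 67 with normexp, 4160 with the ratio of processed signals (3470 higher and 690 lower), 919 at an adjusted p of 0.05, 1109 at a fold of 1.5, 39 without the 3 arrays of poor grid rating and 243 to 336 without single mice. Median-centering moved the median of all means from -0.090 to 0.074. The count of 1 autoantigen entity called lower, *Ptprn*, became 0 with the plain statistic, no filter, the filter on red, median-centered signals, normexp, stand-ins left out, slide as a covariate and without the 3 arrays, and 0 to 1 without single mice. The *Ptprn* mean was -1.09 with the plain statistic, with no filter and with slide as a covariate, -0.69 median-centered, -0.042 with normexp, -0.94 with stand-ins left out and -1.22 without the 3 arrays, and -1.24 to -0.99 without single mice. The count called higher rose from 0 to 4 with median-centered signals and to 2 with the ratio of processed signals, all *Gad1* and *Gad2*. *Gad1* turned to 1.505 (median-centered), 0.93 (ratio of processed signals) and 0.15 (second entity), and *Gad2* to 1.512, 0.42 and 0.17, and to 0.047 with normexp. *Ptprn2* turned to 0.11 with the ratio of processed signals, *G6pc2* to 0.087 (median-centered) and 0.049 (normexp) and *Ica1* to 0.11 without the 3 arrays. *Slc30a8* and *Chga* stayed below 0 under the alternatives run, many of which cannot move a mean; those that could gave -0.86 to -0.047 and -0.82 to -0.32. With hormone genes as the reference in place of granins, *Gad2* (0.47), *Ptprn2* (0.41) and *G6pc2* (0.36) passed an adjusted p of 0.05, where ratios deposited as 0 make up 6 of 8 for *Gad2* and 4 of 8 for *Ptprn2*, so that theirs are mostly the hormone median with its sign turned and no measure of these genes. With glucose-sensing genes *Ptprn* (-0.87), *Slc30a8* (-0.56) and *Chga* (-0.42) passed, against a reference with weak red signal. Apart from values made of stand-ins, the cause was not tested. Weak red signal limits what can be said of *Ptprn*, *Ptprn2*, *Slc30a8*, *Gad1* and *Gad2*. No paired analysis was possible because the 8 arrays form 1 group against one pool.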
